A study of Gallus gallus with 21 samples.

Results

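The genes described here are 10 genes that mark Muller glia, the radial glial cells that span the whole depth of the vertebrate retina. They were taken by symbol from a table of 18631 genes measured by RNA sequencing of chicken retina, and all 10 were listed: GLUL, SLC1A3, VIM, SOX2, SOX8, SOX9, GFAP, AQP4, DKK3 and CRYM. The 21 libraries came from retinas of wild-type White Leghorn chickens whose eyes had been fitted with lenses of -10 dioptres at the age of 3 days. Such a lens throws the image behind the retina, and the young eye responds by growing longer, a model known as lens-induced myopia. Groups were 1 day, 3 days and 6 days of lens wear, with 7 libraries each. Every group wore the lens, so the comparisons lie between durations, and the birds of a later day were also older. Whole retina was sequenced, so fewer cells of a type and less RNA per cell cannot be told apart. Labels do not say which libraries came from separate birds, and p-values therefore measure the spread between these libraries, which may be technical.

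Muller glia take up the glutamate that neurons release, turn it into glutamine and hand it back, and they move water and potassium away from active neurons. Their cell bodies lie in the inner nuclear layer and their end feet form the inner border of the retina. In injured or stressed retina they raise filament proteins, a response called gliosis, and in young chicks they can re-enter the cell cycle and act as progenitors. GLUL encodes glutamine synthetase, the enzyme that makes glutamine from glutamate, and SLC1A3 encodes the glutamate transporter GLAST. AQP4 is a water channel of glial end feet, VIM and GFAP are intermediate filament proteins, and SOX2, SOX8 and SOX9 are transcription factors of progenitors and glia. DKK3 belongs to the Dickkopf family of secreted proteins, and CRYM encodes mu-crystallin, which binds thyroid hormone inside the cell.

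Levels are in CPM, read counts scaled to the same library total by the authors. The smallest step between values of a library, 0.0203 to 0.0324 CPM, was taken as the worth of a single read, which put the libraries at an estimated 30.8 to 49.3 M reads. Libraries fell into 2 classes by HINTW, a multicopy gene of the W chromosome, which in birds is carried by females. The 10 libraries called here with W transcripts had 101.2 to 147 CPM of HINTW, and the 11 without had 0.0243 to 0.598 CPM. Day 1 had 4 libraries with W transcripts, day 3 had 1 and day 6 had 5, and bird sex is not given in the labels. The label codes carry numbers of unexplained meaning that form a lower and a higher set on each day. The median change of all tested genes was 0.08 on the log2 scale both for day 6 against day 3 and for day 6 against day 1.

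CPM is not a level per gene length, so it compares libraries for a gene and not genes with each other. Of the 10 genes, 8 had a mean of at least 1 CPM and were tested. SOX8 and SOX9 averaged 0.448 and 0.357 CPM over all libraries, an estimated 8 to 37 and 4 to 32 reads per library, and were not tested. With the filter on low values removed, neither passed in any contrast. Tests were limma fits over all 11072 genes that passed the filter, on log2(CPM + 1), with Benjamini-Hochberg adjustment and a threshold of 0.05 on the adjusted p. A log2 change on this scale understates the change of genes at a few CPM.

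**Figure D1:**
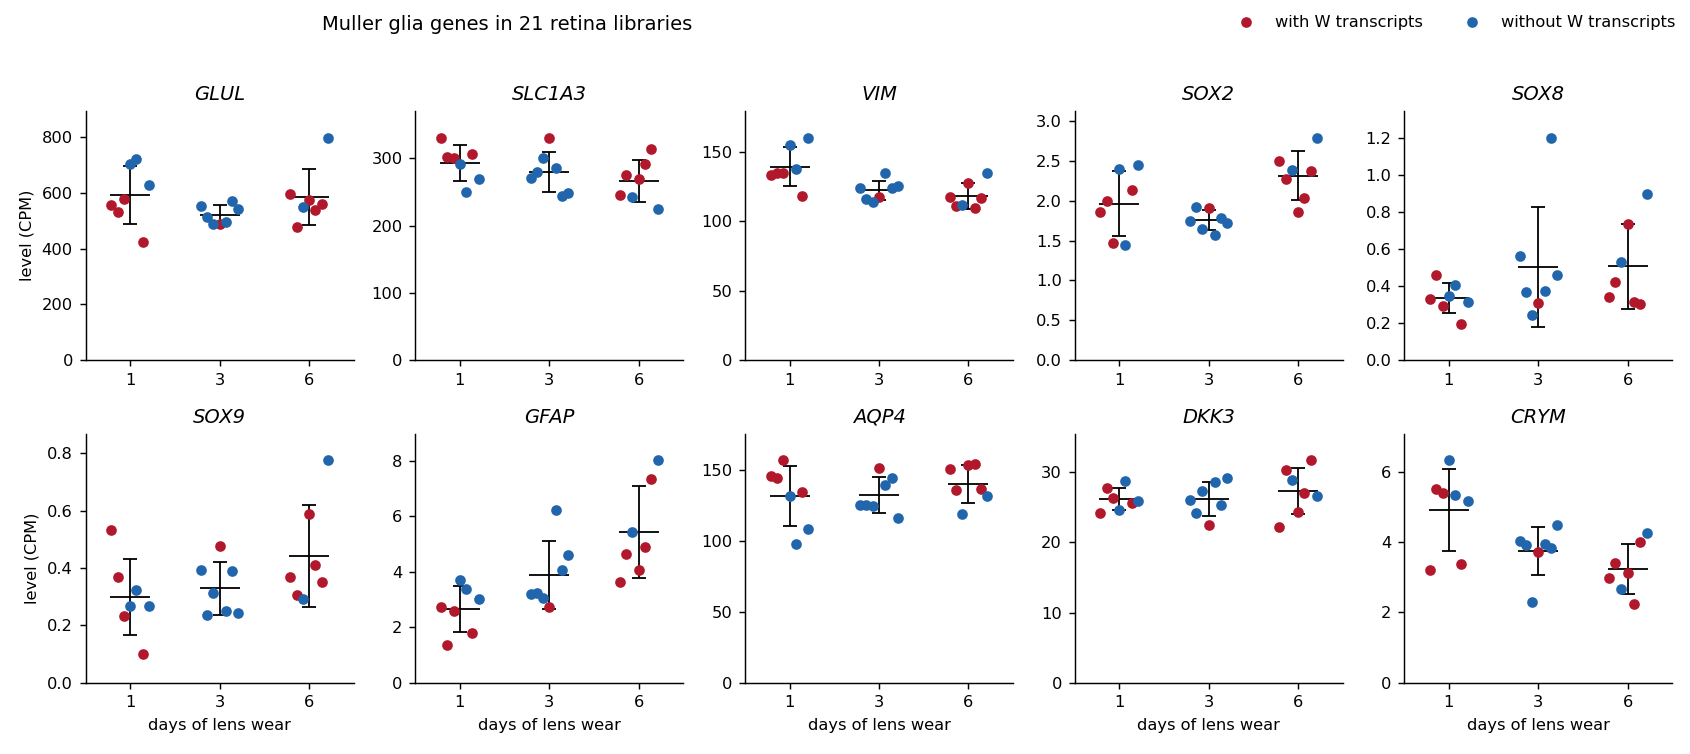
Levels in CPM (vertical axes, each from 0) of the 10 genes in 21 libraries on days 1, 3 and 6 of lens wear; red points are libraries with W transcripts, blue points those without, and bars are the mean and SD of 7 libraries. GFAP is higher and VIM and CRYM are lower on day 6 than on day 1, and the day 6 library with 797 CPM of GLUL also has the highest GFAP of all, 8.02 CPM.

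The F test over the 3 days passed for 4 of the 8 tested genes: GFAP (adjusted p = 0.00497), VIM (0.0206), CRYM (0.0283) and SOX2 (0.0353). Over all tested genes 29.7% passed. Between days 3 and 1 none of the 8 passed, against 3.31% of all genes (1.67% higher and 1.63% lower on day 3). VIM, GFAP and CRYM had an unadjusted p under 0.05, as did 1990 of all 11072 genes. Between days 6 and 3 SOX2 rose and none fell, against 19.4% of all genes higher and 3.44% lower on day 6. Between days 6 and 1 GFAP rose and VIM and CRYM fell, against 19.8% higher and 4.46% lower. With median-of-ratios scaling, which sets the typical gene to no change, the calls over all 11069 genes then tested split differently. For day 6 against day 3 there were 946 higher and 873 lower, in place of 2143 and 381. For day 6 against day 1 there were 938 higher and 990 lower, in place of 2197 and 494. List counts with that scaling belong beside these numbers. Percentages of all genes given without a named setting are those of the reported fits. None of the 8 passed for day 3 against the mean of days 1 and 6, where SOX2 came nearest (-0.18 ± 0.07, adjusted p = 0.0979), against 8.44% of all genes. These contrasts share libraries and are not independent.

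GFAP had the largest log2 change between days among the 8 tested genes. The gene lies on chromosome 27 at 3697628 to 3702164 on the minus strand (GRCg6a). Its lowest, median and highest levels were 1.36, 2.74 and 3.71 CPM on day 1, then 2.74, 3.23 and 6.24 CPM on day 3, and 3.65, 4.91 and 8.02 CPM on day 6. Of the 7 day 6 libraries, 6 lay above every day 1 library. The means were 2.66 ± 0.84, 3.89 ± 1.22 and 5.44 ± 1.65 CPM (SD, n = 7 each) on days 1, 3 and 6. The log2 change for day 6 against day 1 was 0.81 ± 0.17 (SE, limma adjusted p = 0.00214), and it passed with each of the 21 libraries left out in turn. Neighbouring days did not pass, with log2 changes of 0.42 ± 0.17 for day 3 against day 1 (adjusted p = 0.208) and 0.39 ± 0.17 for day 6 against day 3 (0.0987). Astrocytes also make GFAP, and 17 listed markers of astrocytes and oligodendrocytes summed to 348 to 504 CPM on day 1, 364 to 527 CPM on day 3 and 464 to 591 CPM on day 6. Of these 17 markers, 9 averaged under 1 CPM and none was at 0 in every library. Of the 8 tested, ALDOC, the aldolase of brain glia, alone rose on day 6 against day 1 (0.56 ± 0.11, adjusted p = 0.00134) and none fell. Over all tested genes 19.8% rose and 4.46% fell. ALDOC made up a large part of the sums, with means of 223, 238 and 325 CPM on days 1, 3 and 6. The part of these markers in the GFAP result was not tested.

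VIM, a filament protein of Muller glia, went the other way. It lies on chromosome 2 at 19795145 to 19802857 on the minus strand. Its lowest, median and highest levels were 118, 135 and 160.2 CPM on day 1, 114, 124 and 135 CPM on day 3, and 109.8, 117 and 135 CPM on day 6. All 7 day 6 libraries were below the day 1 mean and 5 were below every day 1 library. The log2 change for day 6 against day 1 was -0.23 ± 0.06 (adjusted p = 0.0132), and with median-of-ratios scaling it was -0.32 (0.00114). VIM therefore fell while GFAP rose between the same days. With only the 3 day 1 libraries of higher code numbers kept, the change of VIM was -0.22 and did not pass (adjusted p = 0.0911). Among 9 other tested genes of intermediate filaments and their linkers, 2 rose on day 6 against day 1 and 1 fell, against 19.8% and 4.46% of all genes. EVPL, a linker of the plakin family, rose by 0.24 ± 0.07 (adjusted p = 0.0141), and LMNB1, a nuclear lamin, by 0.35 ± 0.13 (0.0459). INA, a filament protein of neurons, fell by 0.26 on the log2 scale (0.0188). With median-of-ratios scaling EVPL and LMNB1 did not pass (0.17 and 0.27, adjusted p = 0.0648 and 0.16), and 0 of the 9 rose and 1 fell. That scaling gave 938 risen and 990 fallen of all 11069 genes. None of the 6 tested genes of a list of gliosis and glial injury passed in any pairwise contrast of days by limma. In the reported fits none had an unadjusted p under 0.05. Of all 11072 tested genes, 1990 had one for day 3 against day 1. For day 6 the counts were 4151 against day 3 and 4150 against day 1. Another 14 genes of the list averaged under 1 CPM and were not tested. With median-of-ratios scaling 2 of the 6 had an unadjusted p under 0.05 for day 6 against day 3. With the W class as a covariate 1 did for day 3 against day 1 and 1 for day 6 against day 3. None passed with either. The cytokine receptor subunit IL6ST, among the 6, averaged 17.8 CPM with and 25.2 CPM without W transcripts. The share of libraries with W transcripts differed between days.

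CRYM lies on chromosome 14 at 15374257 to 15382100 on the minus strand. Its lowest, median and highest levels were 3.20, 5.34 and 6.32 CPM on day 1, 2.30, 3.91 and 4.50 CPM on day 3, and 2.25, 3.12 and 4.27 CPM on day 6. The 2 lowest day 1 libraries, at 3.20 and 3.37 CPM, overlapped the day 6 range and the other 5 lay above it. CRYM fell on day 6 against day 1 by 0.47 on the log2 scale (SE 0.13, adjusted p = 0.0143), with all 7 day 6 libraries below the day 1 mean. With only the 3 day 1 libraries of higher code numbers kept, the change was -0.41 and did not pass (0.0945). On day 3 a library stood apart at 2.30 CPM, the next being at 3.72 CPM. CRYM ran in an order of day 1, day 3 and day 6, and neighbouring days did not pass: the log2 change was -0.30 ± 0.13 for day 3 against day 1 and -0.17 ± 0.13 for day 6 against day 3.

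Since mu-crystallin holds thyroid hormone, other genes of thyroid hormone handling and response stand beside it. Of 15 tested, 0 rose and 1 fell on day 3 against day 1, 6 rose and 1 fell on day 6 against day 3, and 4 rose and 2 fell on day 6 against day 1, or 3 and 3 of 14 with median-of-ratios scaling. Shares of all tested genes that rose and fell in these contrasts were 1.67% and 1.63%, 19.4% and 3.44%, and 19.8% and 4.46%. Those shares are of the reported fits. Median-of-ratios scaling gave 938 risen and 990 fallen of all 11069 genes on day 6 against day 1. KLF9, a transcription factor induced by thyroid hormone and by glucocorticoids, had means of 92.4 ± 8.14, 82.7 ± 9.20 and 58.0 ± 7.51 CPM (SD, n = 7) on days 1, 3 and 6, and fell on day 6 against day 1 by 0.67 on the log2 scale (SE 0.08, adjusted p = 2.03e-05). THRB, a thyroid hormone receptor that cones depend on, averaged 165 ± 10.3, 132 ± 6.19 and 133 ± 7.11 CPM on days 1, 3 and 6, and fell on day 3 against day 1 (-0.32 ± 0.05, adjusted p = 0.000468) as well as on day 6 against day 1 (-0.31 ± 0.05, 0.00021). THRA, the other receptor, rose on day 6 against day 1 (0.32 ± 0.09, 0.0125), as did the corepressor NCOR1 (0.32 ± 0.06, 0.000634). Of 12 tested genes of the glucocorticoid receptor and its induced genes, KLF9 and NFKBIA fell on day 6 against day 1 and none rose. SGK1, a kinase that glucocorticoids induce, was lowest on day 3: it averaged 49.98 ± 6.00, 32.1 ± 3.16 and 51.7 ± 13.01 CPM on days 1, 3 and 6, fell on day 3 against day 1 (-0.62 ± 0.13, adjusted p = 0.007) and rose on day 6 against day 3 (0.64 ± 0.13, 0.00155).

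The 3 SOX genes stood at low levels. SOX2 lies on chromosome 9 at 17025524 to 17026707 on the minus strand and had an estimated 50 to 115 reads per library. Its lowest, median and highest levels were 1.442, 1.9996 and 2.453 CPM on day 1, 1.57, 1.75 and 1.92 CPM on day 3, and 1.85, 2.37 and 2.79 CPM on day 6. Of the 7 day 6 libraries, 6 were above every day 3 library. SOX2 rose on day 6 against day 3 (0.26 ± 0.08, adjusted p = 0.0190) and passed with each library left out in turn. It did not pass with median-of-ratios scaling (0.20, adjusted p = 0.0811) or with scaling to the listed genes (0.22). Against day 1, day 6 was higher by 0.17 ± 0.08 and did not pass (0.115). SOX8 (chromosome 14 at 6145956 to 6149346) had medians of 0.32998, 0.374 and 0.420 CPM on days 1, 3 and 6, and a day 3 library at 1.1997 CPM lay far above the others of its day, which reached 0.564 CPM. SOX9 (chromosome 18 at 8786171 to 8789082) had medians of 0.267, 0.314 and 0.368 CPM.

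Transcription factors that act with SOX genes in progenitors and glia were followed through 15 tested genes. On day 6 against day 3, 3 rose and 1 fell, and on day 6 against day 1, 3 rose and none fell. With median-of-ratios scaling these counts were 2 and 1, and 2 and 0. Of all 11069 genes, that scaling gave 946 risen and 873 fallen on day 6 against day 3. Against day 1 it gave 938 and 990. In the reported fits 19.4% of all tested genes rose and 3.44% fell on day 6 against day 3. Against day 1 the shares were 19.8% and 4.46%. SOX5, a SOX family factor of several neural cell types, rose on day 6 to 55.3 ± 1.52 CPM, against 45.6 ± 4.26 CPM on day 3 (0.28 ± 0.06, adjusted p = 0.00222) and 43.5 ± 3.15 CPM on day 1 (0.34 ± 0.06, 0.000364). NFIA, a driver of glial differentiation, rose on day 6 against day 1 (0.33 ± 0.07, 0.00282), and SIX3, an eye field factor, rose on day 6 against day 3 (0.59 ± 0.18, 0.0203). NFIB, a Z-linked glial factor, was the gene that fell on day 6 against day 3 (-0.43 ± 0.13, 0.0207), and it stood at 41.6 to 49.9 CPM in libraries with W transcripts and 61.8 to 76.3 CPM in those without. With the W class as a covariate NFIB no longer passed (-0.13, adjusted p = 0.0976), and 5 of the 15 genes rose and none fell on day 6 against day 3. Of 21 tested genes of the Notch pathway, which acts in the choice and upkeep of Muller glia, 0 passed on day 3 against day 1, 3 rose and 1 fell on day 6 against day 3, and 6 rose and 1 fell on day 6 against day 1. The ligand JAG1 averaged 32.6 ± 4.14, 35.1 ± 4.46 and 42.5 ± 3.50 CPM on days 1, 3 and 6 and rose on day 6 against day 1 (0.38 ± 0.09, 0.00358). The receptor NOTCH1 rose on day 6 against day 3 (0.49 ± 0.12, 0.00589), and the ligand DLL4 fell on day 6 against day 1 by 0.31 on the log2 scale (0.0274). With median-of-ratios scaling 2 Notch genes rose and 2 fell on day 6 against day 3, and 4 rose and 2 fell on day 6 against day 1.

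**Figure D2:**
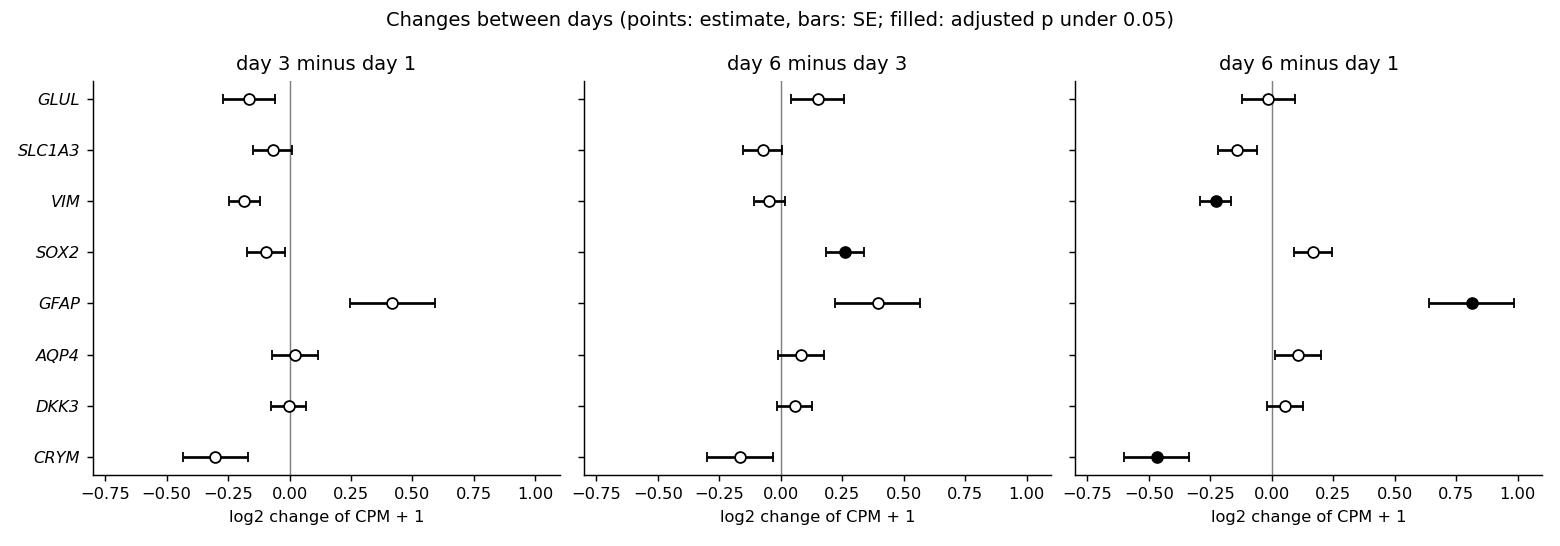
Log2 changes of CPM + 1 (horizontal axes) of the 8 tested genes for day 3 minus day 1, day 6 minus day 3 and day 6 minus day 1; points are limma estimates, bars are SE, and filled points had an adjusted p under 0.05. Filled points are SOX2 for day 6 minus day 3, and VIM, GFAP and CRYM for day 6 minus day 1.

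GLUL and SLC1A3, which clear and convert glutamate, did not pass in any contrast of days in the reported fits. Both passed in some contrasts with the W class as a covariate, as given below. GLUL lies on chromosome 8 at 6016293 to 6022835 on the plus strand. Its lowest, median and highest levels were 422, 576 and 720.2 CPM on day 1, 486, 514 and 571 CPM on day 3, and 478, 558 and 797 CPM on day 6. The 7 day 3 libraries varied less among themselves (coefficient of variation 6.61%) than those of days 1 and 6 (17.6% and 17.3%). This difference was not tested. Day 3 also had the lowest coefficient for VIM, SOX2, SOX9 and CRYM, and not for SLC1A3, SOX8, GFAP, AQP4 and DKK3. The share of all genes with this order was not computed. All but 1 of the day 3 libraries lacked W transcripts, whereas days 1 and 6 mixed both classes. Within classes the coefficient of GLUL was 13.2% with and 7.10% without W transcripts on day 1, and 6.40% without on day 3. On day 6 it was 8.15% with and 26.2% without, the latter from 2 libraries that include the one at 797 CPM. The log2 change was -0.16 ± 0.11 for day 3 against day 1, 0.15 ± 0.11 for day 6 against day 3 and -0.01 ± 0.11 for day 6 against day 1. SLC1A3 lies on chromosome Z at 11170339 to 11234916 on the plus strand. Its medians were 301, 280.1 and 269 CPM on days 1, 3 and 6, within a range of 224 to 330.1 CPM, and day 6 differed from day 1 by -0.14 ± 0.08 (adjusted p = 0.201).

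Around these members, 15 other genes of glutamate and glutamine handling were tested. On day 3 against day 1 none rose and 1 fell, on day 6 against day 3 2 rose and none fell, and on day 6 against day 1 2 rose and 3 fell. Shares of all tested genes that rose and fell were 1.67% and 1.63%, 19.4% and 3.44%, and 19.8% and 4.46%, in the same order. The glutamate transporter SLC1A2 fell on day 6 against day 1 (-0.22 ± 0.06, adjusted p = 0.0149), and so did SLC1A7, a transporter of photoreceptors and bipolar cells (-0.27 ± 0.09, 0.0327). SLC38A3, a glutamine transporter, averaged 9.07 ± 2.46, 6.12 ± 1.52 and 9.27 ± 3.06 CPM on days 1, 3 and 6 and rose on day 6 against day 3 (0.51 ± 0.17, 0.0398). With median-of-ratios scaling SLC38A3 no longer passed (0.43, 0.0673). Then 0 of the 15 rose and 2 fell on day 6 against day 3, against 946 and 873 of all 11069 genes. Against day 1, 0 rose and 5 fell, against 938 and 990 of all genes.

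AQP4 lies on chromosome 2 at 104434445 to 104447282 on the minus strand. Its medians were 134, 125 and 137 CPM on days 1, 3 and 6, within a range of 98.1 to 157 CPM, and no contrast of days passed. Day 6 differed from day 1 by 0.11 ± 0.09 on the log2 scale. Of 12 other genes of water and potassium handling, 0 rose and 1 fell on day 3 against day 1, 1 rose on day 6 against day 3, and 3 rose and 1 fell on day 6 against day 1. In these contrasts 1.67% and 1.63%, 19.4% and 3.44%, and 19.8% and 4.46% of all tested genes rose and fell. DMD, whose product dystrophin anchors channels at glial end feet, rose on day 6 to 384 ± 28.8 CPM, against 320 ± 19.3 CPM on day 1 (0.26 ± 0.05, adjusted p = 0.00135). AQP9, a channel for water and small solutes, rose to 13.6 ± 3.11 CPM on day 6, against 7.99 ± 2.52 CPM on day 1 (0.72 ± 0.17, 0.00424). The potassium channel KCNJ2 rose as well (0.23 ± 0.07, 0.0140), and ATP1B3, a subunit of the sodium and potassium pump, fell by 0.25 on the log2 scale (0.000643). With median-of-ratios scaling KCNJ2 no longer passed (0.15, 0.13). Then 0 of the 12 rose and 2 fell on day 6 against day 3, against 946 and 873 of all 11069 genes. Against day 1, 2 rose and 2 fell, against 938 and 990 of all genes.

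DKK3 (chromosome 5 at 8397372 to 8420695 on the plus strand) was the steadiest of the 10 genes, with a ratio of highest to lowest library of 1.42. Its medians were 25.91, 26.05 and 27.07 CPM on days 1, 3 and 6, and its log2 changes between days were -0.0035 ± 0.07, 0.06 ± 0.07 and 0.05 ± 0.07 for day 3 against day 1, day 6 against day 3 and day 6 against day 1. The last pair turned negative with median-of-ratios scaling (-0.03 each) and with scaling to the listed genes (-0.0066 and -0.02). Other Dickkopf relatives block WNT signals, and 15 WNT antagonists and readouts were tested beside it. None passed on day 3 against day 1, 2 rose on day 6 against day 3, and 4 rose and 2 fell on day 6 against day 1. All tested genes had shares of 19.4% risen and 3.44% fallen on day 6 against day 3. For day 6 against day 1 they had 19.8% and 4.46%. DACT1, an inhibitor of Dishevelled, fell on day 6 to 10.6 ± 1.77 CPM, against 17.1 ± 4.68 CPM on day 1 (-0.61 ± 0.15, adjusted p = 0.00671), and WIF1, a secreted WNT inhibitor, fell by 0.37 on the log2 scale (0.0398). The WNT coreceptors LRP5 and LRP6 rose on day 6 against day 1 (0.26 ± 0.07 and 0.20 ± 0.06, adjusted p = 0.0139 and 0.0222). With median-of-ratios scaling neither passed (0.18 and 0.12, adjusted p = 0.089 and 0.269). Then 0 of the 15 rose and 1 fell on day 6 against day 3, against 946 and 873 of all 11069 genes. Against day 1, 0 rose and 3 fell, against 938 and 990 of all genes.

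A longer list of other Muller glia markers put the 10 genes in context. Of 49 listed, 34 were tested. On day 3 against day 1 none passed, against 3.31% of all genes. An unadjusted p under 0.05 was found for 10 of the 34, and for 1990 of all 11072 tested genes. On day 6 against day 3, 3 rose and 2 fell, and on day 6 against day 1, 9 rose and 1 fell. Over all tested genes 19.4% rose and 3.44% fell on day 6 against day 3. Against day 1 the shares were 19.8% and 4.46%, which also stand behind the counts of neuron markers below in the reported fits. Median-of-ratios scaling gave 938 risen and 990 fallen of all 11069 genes on day 6 against day 1. On day 6 against day 3 it gave 946 and 873. The median log2 change of the list was 0.14 for day 6 against day 1, beside 0.08 over all tested genes, and with median-of-ratios scaling 4 rose and 2 fell. For day 6 against day 3 that scaling gave 1 risen and 3 fallen, and the W class as a covariate gave 7 risen and 1 fallen. SPARCL1, a secreted matrix protein of astroglia and Muller glia, averaged 23.3 ± 5.94, 33.8 ± 7.50 and 42.7 ± 6.85 CPM on days 1, 3 and 6 and rose on day 6 against day 1 (0.87 ± 0.16, adjusted p = 0.000753). CRB1, which holds Muller glia and photoreceptors together at the outer limiting membrane, rose to 124 ± 7.70 CPM on day 6, against 99.1 ± 7.07 CPM on day 1 (0.32 ± 0.05, 0.000227). EGFR, a receptor for growth factors that make Muller glia divide, rose to 28.99 ± 1.84 CPM on day 6, against 23.7 ± 2.38 CPM on day 1 (0.28 ± 0.06, 0.00206). S100B, a glial calcium-binding protein, fell on day 6 against day 3 by 0.26 on the log2 scale (0.0132). Some markers of neurons also moved between days 1 and 6. Of 11 tested rod markers, 7 rose and none fell on day 6 against day 1 (median log2 change 0.65, and 0.57 with median-of-ratios scaling, where again 7 rose). Of 15 tested cone markers 4 rose and 4 fell, and of 16 tested amacrine cell markers 1 rose and 4 fell (3 and 4, and 0 and 7, with median-of-ratios scaling). Of 12 tested bipolar cell markers 1 rose and 0 fell, and of 15 tested ganglion cell markers 1 rose and 0 fell. None of 10 tested horizontal cell markers passed. With median-of-ratios scaling 0 rose in each of these lists, and 3 bipolar, 1 ganglion and 1 horizontal cell marker fell. Sums of markers of other cells are given as a description, since sums of different genes do not compare cell types. The 11 listed markers of microglia and other leukocytes summed to 6.99 to 10.6, 6.73 to 9.45 and 8.43 to 11.9 CPM on days 1, 3 and 6. For 15 of pigment epithelium the sums were 38.3 to 52.2, 37.6 to 44.3 and 41.3 to 51.1 CPM. For 11 of ciliary epithelium they were 105 to 146, 77.6 to 120 and 99.4 to 142 CPM. Endothelium and pericytes, with 13 listed, had 55.2 to 67.1, 44.4 to 60.5 and 51.5 to 70.2 CPM. Their part in the changes was not tested.

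Libraries with and without W transcripts differed in 4 of the 8 tested genes, when days were held as a term. The within-day fits and those with a library left out or the code sets as a term were chosen after seeing the data. Over all tested genes 5.38% passed, 1.32% higher and 4.06% lower with W transcripts. Most of the lower ones lay on Z. Among the 10489 tested genes not assigned to Z or W, 105 were higher and 48 lower. AQP4 and SLC1A3 were higher with W transcripts, and GLUL and GFAP were lower. Ranges within days are given below as a description, since the share of all genes whose classes did not overlap was not computed.

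AQP4 had a median of 148 CPM (134 to 157) over the 10 libraries with W transcripts, against 125 CPM (98.1 to 144) over the 11 without. All 10 libraries with W transcripts lay above the mean of those without. The same order held within each day: AQP4 was at 134 to 157 CPM with W transcripts and 98.1 to 132 CPM without on day 1, at 151 CPM in the single library with W transcripts and 116 to 144 CPM without on day 3, and at 136 to 154 CPM with and 119 to 132 CPM without on day 6. The classes therefore did not overlap on any of the 3 days, though on day 1 only narrowly (134.1 against 131.8 CPM). The log2 difference was 0.29 ± 0.06 (SE, limma adjusted p = 0.00382), and it passed with each of the 21 libraries left out.

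SLC1A3 ranged over 246 to 330.1 CPM with W transcripts and over 224 to 300.3 CPM without. On day 1 the classes were apart, at 301 to 330.1 CPM with and 249 to 292 CPM without, and on day 3 the single library with W transcripts, at 329 CPM, was above all 6 without. On day 6 SLC1A3 was at 246 to 314 CPM with W transcripts and at 224 and 243 CPM without. The classes were thus apart on each day, though on day 6 only narrowly (245.8 against 243.0 CPM). The log2 difference was 0.23 ± 0.06 (adjusted p = 0.00982). Without the day 3 library with W transcripts the difference was 0.22 and no longer passed (adjusted p = 0.05003).

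GLUL ranged over 422 to 595 CPM with W transcripts and over 487 to 797 CPM without. On day 1 it was at 422 to 576 CPM with and 629 to 720.2 CPM without, with no overlap, whereas on day 6 the ranges overlapped, at 478 to 595 CPM with and 548 and 797 CPM without. The log2 difference was -0.29 ± 0.08 (adjusted p = 0.0249). It did not pass without day 1 replicate 4 (-0.27, adjusted p = 0.0640), without day 1 replicate 5 (-0.27, 0.0733) or without day 6 replicate 7 (-0.23, 0.122). GFAP was at 1.36 to 2.74 CPM with and 3.04 to 3.71 CPM without W transcripts on day 1, at 2.74 CPM with and 3.07 to 6.24 CPM without on day 3, and at 3.65 to 7.35 CPM with and 5.45 and 8.02 CPM without on day 6. Its difference of -0.45 ± 0.13 lay at the threshold (adjusted p = 0.0499) and passed with only 8 of the 21 libraries left out. Within day 1 or day 6 alone the 4 genes differed in the same directions and none passed. On day 1 the log2 differences were 0.37 for AQP4, 0.20 for SLC1A3, -0.40 for GLUL and -0.51 for GFAP, and on day 6 they were 0.22, 0.25, -0.27 and -0.40.

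**Figure D3:**
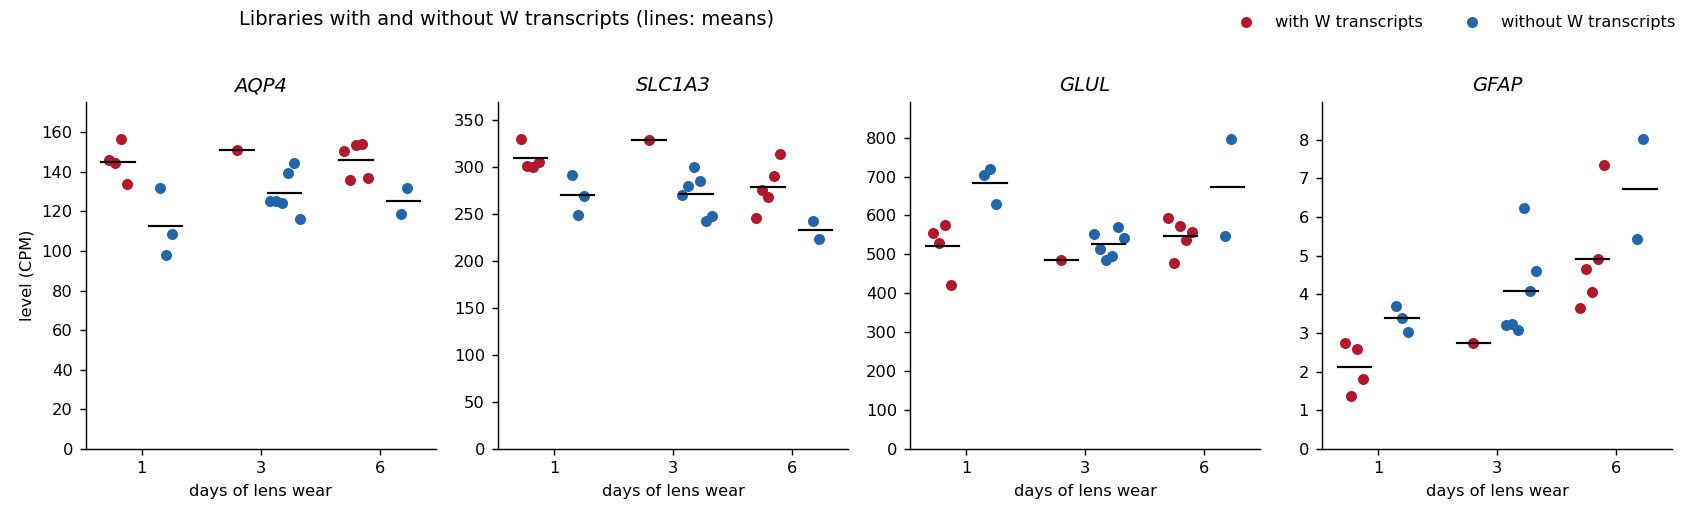
Levels in CPM (vertical axes, from 0) of AQP4, SLC1A3, GLUL and GFAP by days of lens wear; red points are libraries with W transcripts, blue points those without, and lines are class means. AQP4 does not overlap between the classes on any day, while GLUL and GFAP overlap on day 6.

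Of the 10 genes SLC1A3 alone lies on chromosome Z, of which birds with a W chromosome carry a single copy. Of 556 tested Z genes, 402 were lower and 14 higher with W transcripts, and the median log2 difference was -0.41. SLC1A3, at 0.23, ranked 15 from the top of these 556 genes, of which 42 had a difference above 0. SLC1A1, another glutamate transporter gene on Z, ranked 6: it stood at 27.4 to 35.7 CPM with W transcripts and at 17.4 to 22.1 CPM without, with no overlap (0.59 ± 0.04, adjusted p = 7.25e-10). The 27 tested genes on W were all higher with W transcripts. Of the 10489 tested genes not assigned to Z or W, any on unplaced scaffolds included, 105 were higher and 48 lower with W transcripts, and AQP4, GLUL and GFAP are among these.

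**Figure D4:**
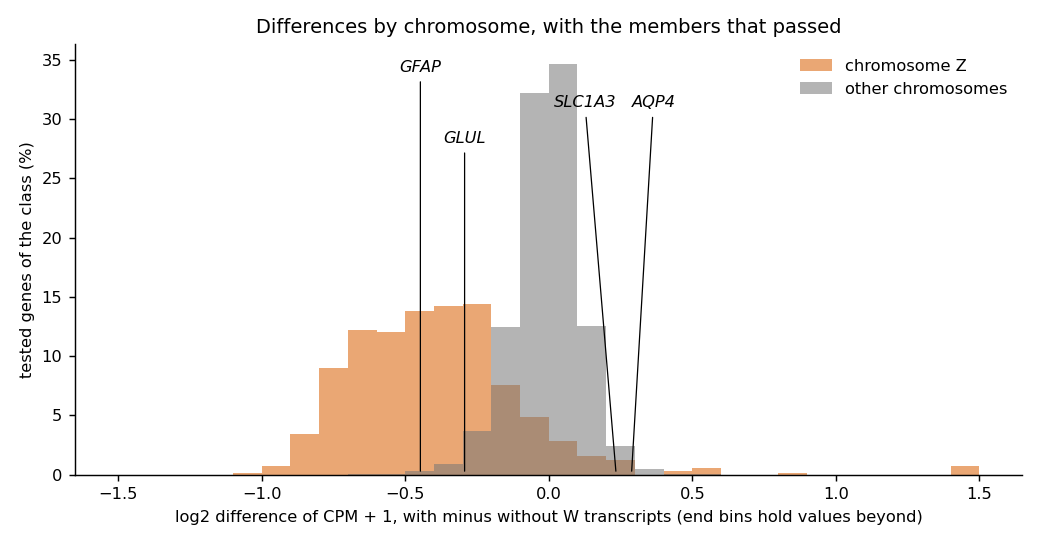
Share in percent (vertical axis) of tested genes by log2 difference of CPM + 1 between libraries with and without W transcripts (horizontal axis), for chromosome Z in orange and genes not assigned to Z or W in grey; lines mark the 4 Muller glia genes that passed. Most Z genes lie below 0, and SLC1A3, a Z gene, lies above it at 0.23.

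A few other Muller glia markers and neighbours in function also differed by W class. Over all tested genes 1.32% were higher and 4.06% lower with W transcripts. Of 34 tested markers, FGFR3, a fibroblast growth factor receptor, was higher with W transcripts (0.37 ± 0.09, adjusted p = 0.0125). The Z-linked NFIB, and CA2, a carbonic anhydrase, were lower (-0.52 ± 0.05, adjusted p = 2.48e-08, and -0.37 ± 0.10, 0.0249). Of the 450 genes lower with W transcripts, 402 lay on Z. Among the 10489 tested genes not assigned to Z or W, 105 were higher and 48 lower. Among genes of water and potassium handling the Z-linked cotransporter SLC12A2 was lower (-0.34 ± 0.05, adjusted p = 5.58e-05). Of the 8 tested markers of astrocytes and oligodendrocytes, none was higher and 2 were lower with W transcripts, among them ENPP2 (-0.30 ± 0.08, adjusted p = 0.0293), and the 17 listed ones summed to 348 to 572 CPM with and 364 to 591 CPM without; their part in the GFAP difference was not tested.

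Because the share of libraries with W transcripts differed between days, the changes between days were also fitted with the W class as a covariate. Day 6 against day 1 then gave GFAP higher (0.88, adjusted p = 0.000241), against 21.9% of all genes, and VIM (-0.21, 0.0117), CRYM (-0.44, 0.0159) and SLC1A3 (-0.17, 0.0366) lower, against 5.20%. Day 6 against day 3 gave GFAP (0.65, 0.0068), GLUL (0.32, 0.0214) and SOX2 (0.31, 0.0147) higher, against 18.0%, and SLC1A3 lower (-0.21, 0.0333), against 3.40%. Day 3 against day 1 gave VIM lower (-0.24, 0.0329), against 2.12%, and day 3 against the mean of days 1 and 6 gave GLUL lower (-0.30, 0.0237), against 7.66%. SLC1A3 thus passed between days only with this covariate. With the 10 libraries with W transcripts alone GFAP rose on day 6 against day 1 (0.92, adjusted p = 0.00921), and with the 11 without them the change was 0.80 and did not pass (0.129). VIM and CRYM did not pass in either class alone: day 6 differed from day 1 by -0.16 with and -0.29 without W transcripts for VIM (adjusted p = 0.144 and 0.205), and by -0.35 and -0.59 for CRYM (0.15 and 0.174). SOX2 differed on day 6 against day 3 by 0.14 with W transcripts, where day 3 had 1 library. Without W transcripts, where day 6 had 2 libraries, SOX2 differed by 0.39 and did not pass (limma adjusted p = 0.108). All fits of the libraries with W transcripts alone that take in day 3 rest on that 1 day 3 library. A test of whether the change from day 1 to day 6 differed by W class passed for 0 of 11074 genes, with 387 at an unadjusted p under 0.05, and none of the 8 members was among either.

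Between the sets of higher and lower code numbers on day 1 none of the 8 genes passed, against 8.72% of all genes. AQP4 came nearest, at 98.1 to 134 CPM in the 3 libraries of higher numbers and 132 to 157 CPM in the 4 of lower numbers (-0.36 ± 0.11, adjusted p = 0.0560). Since 3 of those 4 carried W transcripts and 1 of the 3 did, the W class was added as a term, with which the difference of AQP4 was -0.25 and passed (adjusted p = 0.0484). Holding the code number sets as a further term, the difference of AQP4 by W class was 0.28 (adjusted p = 0.00804), that of SLC1A3 0.23 (0.0207), that of GLUL -0.29 (0.0425) and that of GFAP -0.39, which did not pass (0.0912). That term was common to the 3 days, so it cannot take off a code difference of day 1 alone. AQP4 averaged 114 CPM with higher and 145 CPM with lower numbers on day 1. The averages were 133 and 132 CPM on day 3, and 144 and 135 CPM on day 6.

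Correlations within days were computed for pairs of the 10 genes alone. The share over pairs of all genes was not computed, so whether the 10 vary as a block cannot be said. Of 45 pairs, 5 had a Pearson correlation with an adjusted p under 0.05 over 21 libraries, after the log2 levels were centred on their day means (100000 permutations within days), 3 positive and 2 negative. GLUL and VIM had the highest, r = 0.74 (adjusted p = 0.0236 by permutation) and Spearman's rho = 0.80 (0.00405), and r = 0.55 without the 2 libraries farthest out in GLUL. VIM and CRYM had r = 0.64 (adjusted p = 0.0427 by permutation, rho = 0.61 with 0.0544). GLUL and SLC1A3, the enzyme and the transporter of the same cycle, ran in opposite directions, with r = -0.63 (0.0332 by permutation), rho = -0.76 (0.00495) and r = -0.62 without the 2 farthest libraries. GLUL and SOX8 had r = 0.53 (0.0236 by permutation, rho = 0.56 with 0.0544) and 0.38 without the 2 farthest. SLC1A3 and SOX8 had r = -0.63 (0.0427 by permutation) and -0.56 without the 2 farthest in SLC1A3. SOX8 was too low to be tested between days. Its outlying library, day 3 replicate 6 at 1.1997 CPM, was also highest of its day in GLUL and lowest in SLC1A3. No r without the libraries farthest out in SOX8 was computed. With median-of-ratios scaling only the 2 negative pairs passed. The positive ones then had adjusted p of 0.0891 (GLUL with VIM), 0.127 (VIM with CRYM) and 0.063 (GLUL with SOX8) by permutation. With both days and W classes centred, 0 of the 45 pairs had an adjusted p under 0.05, GLUL with VIM stood at 0.61 (adjusted p = 0.0897 by permutation), GLUL with SLC1A3 at -0.28 (0.48), and SLC1A3 with AQP4, at 0.55 before, at 0.00.

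**Figure D5:**
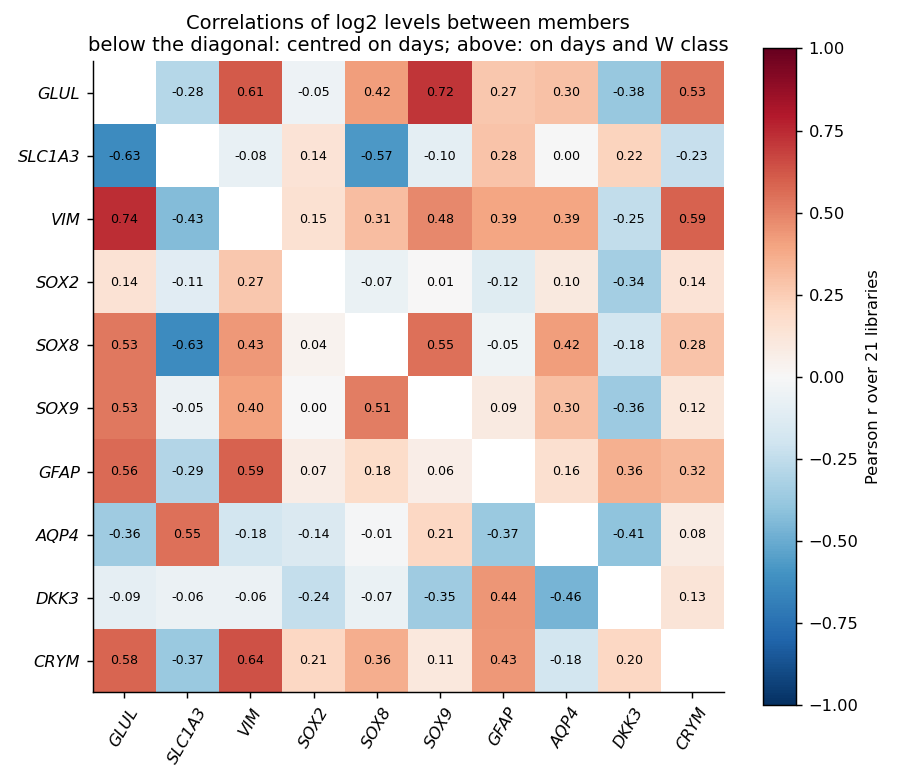
Pearson correlations of log2 levels between the 10 genes over 21 libraries, centred on days (below the diagonal) or on days and W class (above it), on a colour scale from -1 to 1. GLUL with SLC1A3 changes from -0.63 below the diagonal to -0.28 above it, whereas GLUL with VIM is 0.74 and 0.61.

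Day 6 replicate 7, a library without W transcripts, held the highest value of its day for 7 of the 10 genes (GLUL, VIM, SOX2, SOX8, SOX9, GFAP and CRYM) and the lowest for SLC1A3. Its median-of-ratios factor, 1.083, was the highest of the 21 libraries, so the typical gene also read high in it. The share of all genes that were highest of their day in this library was not computed. No other library held the highest value of its day for more than 3. Without it GFAP still rose on day 6 against day 1 (0.73, adjusted p = 0.00574), VIM (-0.26, 0.00758) and CRYM (-0.52, 0.0102) still fell, and SOX2 still rose on day 6 against day 3 (0.23, 0.0439).

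For the 4 genes that changed over days, the nearest profiles were found by Pearson's r over the 21 libraries, days included, as a description. The search took in tested genes except those whose symbol starts with LOC, so such a gene may lie nearer. GFAP was nearest to SKIL, a repressor of SMAD signalling (r = 0.89), OLFML2A, an extracellular protein (0.86), and TPM2, a tropomyosin (0.84). VIM was nearest to GPR26, an orphan receptor (0.84), DNAJB5, a co-chaperone (0.83), and ATP9A, a putative lipid flippase (0.80). CRYM was nearest to ATP9A (0.80), PMM1, a phosphomannomutase (0.80), and HRASLS (0.79), so ATP9A stood among the nearest of both genes that fell. SOX2 was nearest to CCT3, a chaperonin subunit (0.79), SOHO-1, a homeobox gene (0.76), and DVL3, a Dishevelled protein of WNT signalling (0.76).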

How the data were processed

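Per the labels' protocols, RNA was extracted from frozen retinas and made into stranded total RNA libraries depleted of ribosomal RNA. The authors deposited a table of CPM, read counts scaled to library totals. Per the submitters' processing notes STAR, Partek and genome build GRCg6a were used, with versions not given in the sources used here. Every deposited value carried 0.0001, which was subtracted. Listed genes sum to 30.4 to 33.3% of the CPM scale, and what else the total held is not given. Dividing low values by a library's smallest step gave a whole number, within 0.1, for 94.4 to 95.3% of them. Whole reads are therefore not claimed, read numbers are estimates and no count model was used. Gene coordinates are the table's own, and whether starts count from 0 or 1 is not given. Chromosome names were assigned by the shared symbols of RefSeq genes. Protein and promoter sequences were not used here. Some genes of the lists enter the counts and are not reported here by name.

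Computed here were fits with limma 3.58.1 in R 4.3.3 (no trend, not robust) to log2(CPM + 1). They took in the 11072 genes that averaged 1 CPM or more and all 21 libraries, with days as the groups (18 residual degrees of freedom). A library counted as having W transcripts above 10 CPM of HINTW. Correlations used 100000 permutations within days. The fits were tested on simulated data. Alternatives were pseudocount 0.1, no filter, a mean of at least 5 CPM, other scalings, covariates, subsets and leaving out each library.

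The members, lists and tests were chosen with earlier results of these data known. Genes named are the 10 members, up to 3 risen and 3 fallen genes per list and pairwise contrast by lowest adjusted p, the 3 nearest profiles of members that passed the F test, and HINTW; SLC1A1, THRA and the other genes named for the W contrast by the same rule. Figures and tables used Python 3.11.15, numpy 2.4.6, pandas 2.3.3, scipy 1.17.1 and matplotlib 3.10.9.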

Additional observations from a re-analysis of the deposited data

Results flagged for a closer look

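Among 30 groups of 7 libraries (10 genes on 3 days), 3 held a library far from the others by Dixon's test at 95%, a rate that chance alone brings to about 1 group in 20. GLUL stood at 796.5 CPM in day 6 replicate 7, against 595 CPM in the nearest other library of that day. SOX8 stood at 1.1997 CPM in day 3 replicate 6, against 0.564 CPM in the nearest. CRYM stood at 2.30 CPM in day 3 replicate 3, against 3.72 CPM in the nearest.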

How the results depend on the processing

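Of 494 values of single genes recomputed under the alternatives, 425 kept their direction and their side of the threshold, 22 lost the call, 9 gained it and 38 changed sign, none of them called in the reported fits. Counts of members called moved as follows. For day 3 against day 1, 1 member was called with the W class as a covariate, against 0. For day 6 against day 3, 4 were called with that covariate, and 0 with a mean of at least 5 CPM, with median-of-ratios scaling, with scaling to the listed genes, with W-transcript libraries alone and with the others alone, against 1. For day 6 against day 1, 1 was called with a mean of at least 5 CPM (a filter that removes SOX2, GFAP and CRYM), with W-transcript libraries alone and with the higher day 1 code numbers alone, and 0 with the libraries without W transcripts, against 3. For day 3 against the mean of days 1 and 6, 1 was called with the W covariate. The F test called 1 with a mean of at least 5 CPM, 1 with W-transcript libraries alone, 0 with the others alone and 2 with the higher day 1 code numbers, against 4. The W contrast called 0 within day 1 and 0 within day 6, against 4. The code contrast called 1 with a mean of at least 5 CPM, with the W covariate, and with trend and robust on, against 0. Of the correlations, 2 passed with median-of-ratios scaling and 0 when W class was centred too, against 5.

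Counts over all genes moved by more than 1.5 times in these sets of libraries: for day 3 against day 1, 16 with and 127 without W transcripts, and 627 with the lower day 1 code numbers alone; for day 6 against day 3, 57 and 90; for day 6 against day 1, 1568 and 22, and 1502 with the higher day 1 code numbers; for day 3 against the mean of days 1 and 6, 15 and 205; for the F test, 1041 and 211; and for W class, 255 within day 1 and 305 within day 6.

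Values that changed sign, as log2 differences, follow. For day 3 against day 1, AQP4 was -0.13 with the lower day 1 code numbers; DKK3 0.0204 there and 0.0184 without W transcripts; SLC1A3 0.0331 with the W covariate, 0.0902 with and 0.0047 without W transcripts, and 0.0223 with the higher code numbers; and SOX2 0.0271 with W transcripts. For day 6 against day 3, AQP4 was -0.0021 with median-of-ratios scaling, -0.0809 with the W covariate, -0.0503 with and -0.0424 without W transcripts; DKK3 -0.0271 with median-of-ratios scaling and -0.0066 with scaling to the listed genes; and VIM 0.0277 with the W covariate. For day 6 against day 1, AQP4 was -0.0474 with the lower code numbers, DKK3 -0.0338 and -0.0216 with those scalings, and GLUL 0.028 with the W covariate, 0.0801 with W transcripts and 0.0029 with the higher code numbers. For day 3 against the mean of days 1 and 6, AQP4 was 0.0103 with median-of-ratios scaling, 0.11 with the W covariate, 0.0552 with and 0.12 without W transcripts, and 0.0707 with the higher code numbers; CRYM 0.0233 with W transcripts; DKK3 0.0102 with median-of-ratios scaling; GFAP -0.21 with the W covariate, -0.17 with and -0.22 without W transcripts, and -0.0097 with the higher code numbers; and SLC1A3 -0.003 with the code set as a term and -0.0308 with the lower code numbers. In the code contrast GFAP was -0.10 and SOX2 -0.0057 with the W covariate, and GLUL 0.0353 and VIM 0.0474 with median-of-ratios scaling. The cause was not tested.

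With each of the 21 libraries left out, 1 to 2 members were called for day 6 against day 3, 2 to 4 by the F test and 2 to 4 by W class, and 447 to 1084 genes for day 3 against the mean of days 1 and 6. Signs changed for AQP4 (-0.0451 to 0.0665) and DKK3 (-0.0299 to 0.0312) on day 3 against day 1, for GLUL (-0.0914 to 0.037) on day 6 against day 1, and, for day 3 against that mean, for CRYM (-0.11 to 0.0166), DKK3 (-0.0562 to 0.0049), GFAP (-0.0886 to 0.07) and SLC1A3 (-0.0375 to 0.0351). GFAP passed for day 6 against day 3 without day 3 replicate 5 (0.49, adjusted p = 0.0439). No paired analysis was possible because the labels give no replicate numbers that the days share. Members at a few CPM (SOX2, GFAP, CRYM) rest on about 50 to 331 estimated reads per library, and SOX8 and SOX9 on fewer.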
